A study of Mus musculus with 8 samples.

Results

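A set of 10 genes of fibroblast growth factor (FGF) signalling were followed in the embryonic brain: the ligands Fgf8, Fgf15 and Fgf17, the receptors Fgfr1, Fgfr2 and Fgfr3, the feedback inhibitors Spry1, Spry2 and Spry4, and the transcription factor Etv5. They were chosen by name, and a gene counted as measured where the platform annotation gave a probe set that symbol and no other. All 10 genes were measured, out of 19938 genes on the array. The genes were read by 11 probe sets, 2 for Etv5 and 1 for each of the other 9 genes, and those of Etv5 were averaged.

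The cortex of mouse embryos was taken on embryonic day 16, and its RNA was hybridised to 8 Affymetrix arrays. The 4 arrays labelled as VEGF overexpression came from bitransgenic embryos that carry GFAP-tTA, in which the Gfap promoter drives a tetracycline-controlled transactivator, together with TetO-VEGF-A164, a VEGF-A gene which that transactivator switches on. The 4 control arrays came from embryos labelled wild type and described as lacking TetO-VEGF-A164, and whether any of them carried GFAP-tTA is not stated there. All embryos had a mixed strain background, and nothing in the labels says whether an array held RNA of 1 embryo or of several, or whether arrays came from separate litters. The p-values below therefore measure the spread between these arrays, whose number limits the precision. The transgene can be switched on only where the Gfap promoter drives the transactivator, and where its product acts cannot be read from these values. An effect of VEGF-A and one of the transactivator, the insertions or the mixed background cannot be told apart with these groups.

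FGFs are secreted ligands that bind receptor tyrosine kinases on neighbouring cells, with heparan sulfate as a cofactor, and signal mainly through the Ras-ERK cascade. Etv5, an ETS factor of the PEA3 subfamily, and the Sprouty genes are classic transcriptional targets of the pathway, and Sprouty proteins in turn damp it. In the forebrain, Fgf8 and Fgf17 come from a rostral midline source and pattern the cortex, while the receptors are found in radial glia, the stem cells that build the cortex. Fgf15 is the mouse counterpart of human FGF19 and is expressed by progenitors of the embryonic forebrain and diencephalon.

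Values are those of the deposited table, on a log scale read as log2 and centred for each probe set on its median over the 8 arrays. A value of 0 is thus the middle of the 8 arrays for that gene, absolute levels are lost, and neither levels of different genes nor the presence of cortical markers can be read from them. Array medians lay between -0.0091 and 0.0154, and the interquartile range within an array was between 0.061 and 0.142. Vegfa itself had 0.059, 0.078, -0.026 and -0.055 in the VEGF-labelled arrays, against -0.10, 0.036, -0.12 and 0.026 in control (limma, difference 0.053, adjusted p = 0.748). The groups overlapped, so Vegfa, read by a probe set of unstated position relative to the transgene, does not check the labels.

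Of the 10 genes, Fgfr3 was the only one whose groups did not overlap, beside 6.84% of all genes, 2.13% higher and 4.71% lower. Fgf15 had the largest difference, and both Fgfr3 and Fgf15 were higher in the VEGF-labelled arrays. Fgfr2 was the lowest relative to control, and the remaining genes differed by -0.10 to 0.092 on the log2 scale. A difference beyond 0.3 in either direction was found in 2 of the 10 genes, Fgfr3 and Fgf15, beside 1.79% of all genes. None of the 10 passed limma's test over all genes at an adjusted p of 0.05, the share of all genes passing being 0%, and the lowest adjusted p of any gene was 0.219. At an unadjusted limma p under 0.05 there were 3 of the 10 genes, 2 higher and 1 lower, beside 12.5% of all genes, 4.62% higher and 7.84% lower. The methods' t-test gave 1 of the 10 genes at its unadjusted threshold, Fgfr3, beside 10.6% of all genes, and 0 after adjustment. The median difference of the 10 genes was 0.022, against -0.010 over all genes, and the median size of the difference without its sign was 0.069, against 0.046. In bulk tissue, a change in the number of cells that express a gene and a change in RNA per cell cannot be told apart.

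The promoters of the receptors that lay farthest apart in opposite directions are shown for orientation, as RefSeq sequence of GRCm38.p6 from 250 bases before to 50 bases after a gene start. This assembly is not the build named in the submitters' processing notes, and no array value was placed by coordinate. Fgfr3 has 2 listed starts on the plus strand of chromosome 5, with windows at chr5:33721474-33721773 and chr5:33722056-33722355, and Fgfr2 has 1 on the minus strand of chromosome 7, with its window at chr7:130266759-130267058. Capitals mark matches on either strand to the GC box GGGCGG.
Fgfr3, first window: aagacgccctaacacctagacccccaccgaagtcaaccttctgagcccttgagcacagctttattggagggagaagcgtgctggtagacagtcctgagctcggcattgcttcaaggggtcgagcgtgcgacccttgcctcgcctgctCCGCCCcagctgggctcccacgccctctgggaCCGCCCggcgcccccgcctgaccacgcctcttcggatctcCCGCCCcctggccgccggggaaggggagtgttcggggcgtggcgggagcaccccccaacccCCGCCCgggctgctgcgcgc
Fgfr3, second window: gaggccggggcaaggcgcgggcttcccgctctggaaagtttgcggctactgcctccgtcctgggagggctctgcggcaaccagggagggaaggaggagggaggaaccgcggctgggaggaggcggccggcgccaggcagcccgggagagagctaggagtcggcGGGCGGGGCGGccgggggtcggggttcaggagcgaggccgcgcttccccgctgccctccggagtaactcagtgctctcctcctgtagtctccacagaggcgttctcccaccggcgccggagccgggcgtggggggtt
Fgfr2: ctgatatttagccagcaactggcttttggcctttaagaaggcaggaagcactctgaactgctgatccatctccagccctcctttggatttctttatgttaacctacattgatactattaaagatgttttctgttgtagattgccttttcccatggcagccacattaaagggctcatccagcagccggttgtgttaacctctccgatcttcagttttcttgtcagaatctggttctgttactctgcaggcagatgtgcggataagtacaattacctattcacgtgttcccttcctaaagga
The first Fgfr3 window held 4 GC box matches and the second held 2, which overlap by their shared base, while the Fgfr2 window held 0. Of the 32851 promoter windows that RefSeq gives, 35.7% held at least 1 match. The ETS core CCGGAA, present in 14.9% of all windows, and the TATA box TATAAA, present in 13.6%, had no match in these 3 windows. The GC content was 69.7% and 73.0% in the Fgfr3 windows and 43.7% in the Fgfr2 window, against a median of 52.7% over all windows. The motifs were picked after the expression values were known, and a match describes the letters only.

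Fgfr3 encodes a receptor enriched in radial glia of the cortical ventricular zone and, later, in astrocytes. Its values were 0.14, 0.057, 0.40 and 0.073 in the VEGF-labelled arrays, against -0.34, -0.10, -0.057 and -0.22 in the control arrays. All VEGF-labelled arrays lay above all control arrays, with VEGF 3 highest and control 1 lowest. The mean was 0.17 ± 0.16 in the VEGF-labelled arrays and -0.18 ± 0.13 in control (SD, n = 4 each). The difference, 0.35 with an SE of 0.087, is 1.27-fold if the base is 2. In limma the 95% confidence interval of the difference was 0.15 to 0.54 and the adjusted p was 0.243. Only 1.11% of all genes lay as far apart in either direction, and groups did not overlap in 6.84% of all genes, 2.13% with the VEGF-labelled arrays higher and 4.71% with them lower. By exact permutation, two-sided, p was 0.0286, the smallest value that 4 against 4 arrays allow over 70 arrangements, and it was 1 of 10 such tests, left unadjusted.

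With each array left out in turn, the Fgfr3 difference ran from 0.27 without VEGF 3 to 0.39 without control 3. The groups also did not overlap with arrays centred on their medians, at a difference of 0.36, or after quantile normalization, at 0.38. The adjusted p ranged from 0.143 to 0.616 over the 17 alternative settings, all of them limma fits except the methods' t-test, which gave 0.391.

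Fgfr1, the receptor gene expressed in most forebrain progenitors and many neurons, had 0.0024, -0.14, 0.098 and 0.055 in the VEGF-labelled arrays, against -0.041, 0.022, -0.0024 and -0.022 in control. VEGF 2 was below and VEGF 3 and VEGF 4 were above all control arrays, so the VEGF-labelled arrays surrounded the control range. The difference was 0.014 with an SE of 0.052 and a 95% confidence interval of -0.10 to 0.13 (limma, adjusted p = 0.952).

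Fgfr2, whose product is found in radial glia and in glial lineages, went the other way from Fgfr3. Its values were -0.20, -0.17, 0.031 and -0.043 in the VEGF-labelled arrays, against 0.068, -0.014, 0.014 and 0.11 in control. VEGF 1 and VEGF 2 were the lowest of the 8 arrays, and VEGF 3 alone reached into the control range. The mean was -0.096 ± 0.11 in the VEGF-labelled arrays and 0.046 ± 0.057 in control (SD, n = 4 each). The groups thus differed by -0.14 with an SE of 0.057 and an interval of -0.27 to -0.012 (limma, adjusted p = 0.367). By exact permutation, two-sided, p was 0.0857.

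Among the ligands, Fgf15 stood out by its size and its spread. Its values were 0.48, 0.58, 0.29 and -0.16 in the VEGF-labelled arrays, against -0.64, -0.18, 0.16 and -0.80 in control. VEGF 1, VEGF 2 and VEGF 3 lay above all control arrays, while VEGF 4 lay below control 3 and just above control 2. The mean was 0.30 ± 0.33 in the VEGF-labelled arrays and -0.36 ± 0.44 in control (SD, n = 4 each). The difference, 0.66 with an SE of 0.22, is 1.58-fold if the base is 2. Only 0.15% of all genes lay as far apart, but 99.5% of genes had a smaller spread within groups than the 0.39 of Fgf15. The 95% confidence interval was 0.15 to 1.17, with an adjusted p of 0.303 in limma and an exact two-sided permutation p = 0.0571. Leaving out 1 array gave differences from 0.52 without control 4 to 0.84 without control 3.

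Fgf8 and Fgf17, the rostral patterning ligands, did not separate the groups. Fgf8 had -0.032, -0.11, 0.071 and 0.073 in the VEGF-labelled arrays, against -0.14, 0.075, -0.018 and 0.018 in control. All 4 VEGF-labelled values lay inside the control range, and the difference was 0.016 with an interval of -0.12 to 0.15 (limma, adjusted p = 0.95). Fgf17 had 0.057, -0.15, -0.057 and 0.11 in the VEGF-labelled arrays, against -0.14, 0.16, 0.25 and -0.12 in control. Both groups held high and low arrays, and the difference was -0.047 with an interval of -0.27 to 0.17 (limma, adjusted p = 0.905).

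**Figure D1:**
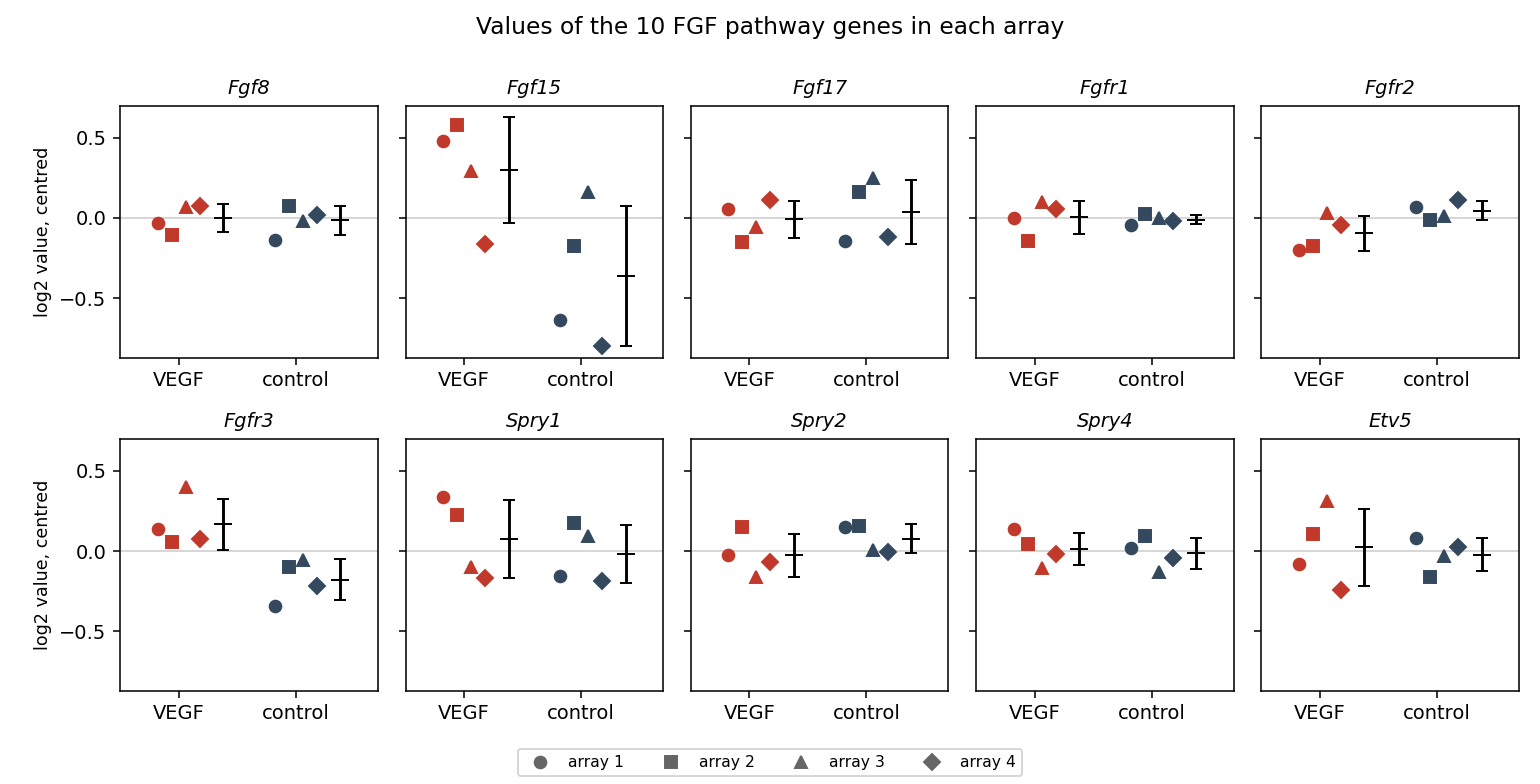
Log2 values, centred per probe set, of the 10 genes in each VEGF-labelled array (left, red) and each control array (right, dark), with the marker shape giving the array number and the bar the mean and SD of the 4 arrays. Fgfr3 is the gene whose groups do not overlap, beside 6.84% of all genes. Fgf15 covers the widest range, from -0.80 in control 4 to 0.58 in VEGF 2.

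The Sprouty genes, whose products are intracellular inhibitors of receptor tyrosine kinase signalling, varied between arrays more than between groups. Spry1 had 0.34, 0.23, -0.096 and -0.17 in the VEGF-labelled arrays, against -0.16, 0.18, 0.096 and -0.18 in control. VEGF 1 and VEGF 2 were the highest and control 4 was the lowest, with VEGF 4 next to it. The difference was 0.092 with an SE of 0.13 and an interval of -0.19 to 0.38 (limma, adjusted p = 0.846), and it was 0.0044 without VEGF 1 and 0.17 without VEGF 4.

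Spry2 had -0.026, 0.15, -0.16 and -0.070 in the VEGF-labelled arrays, against 0.15, 0.16, 0.0065 and -0.0065 in control. VEGF 1, VEGF 3 and VEGF 4 lay below all control arrays, while VEGF 2 was level with the higher control arrays. The difference was -0.10 with an interval of -0.26 to 0.055 (limma, adjusted p = 0.615). It was -0.16 without VEGF 2 and -0.058 without VEGF 3.

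Spry4 had 0.14, 0.045, -0.10 and -0.020 in the VEGF-labelled arrays, against 0.020, 0.097, -0.13 and -0.043 in control. Both groups covered nearly the same range, and the difference was 0.029 with an interval of -0.11 to 0.17 (limma, adjusted p = 0.912). Averaged over the 3 Sprouty genes, VEGF 1, VEGF 2 and control 2 had 0.149, 0.141 and 0.143, while the other 5 arrays lay between -0.121 and 0.005.

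Etv5, the transcription factor downstream of ERK, had -0.083, 0.11, 0.31 and -0.24 in the VEGF-labelled arrays, against 0.081, -0.16, -0.033 and 0.025 in control. The highest and the lowest of the 8 arrays, VEGF 3 and VEGF 4, were both VEGF-labelled, and the control arrays lay between them. The difference was 0.045 with an interval of -0.20 to 0.29 (limma, adjusted p = 0.922). Its 2 probe sets, read alone, gave 0.26 and 0.36 in VEGF 3 and -0.25 and -0.24 in VEGF 4, so both showed the same extreme arrays. VEGF 3, the highest array in Etv5, had the lowest Sprouty mean of the 8 arrays, while VEGF 2 was high in both.

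**Figure D2:**
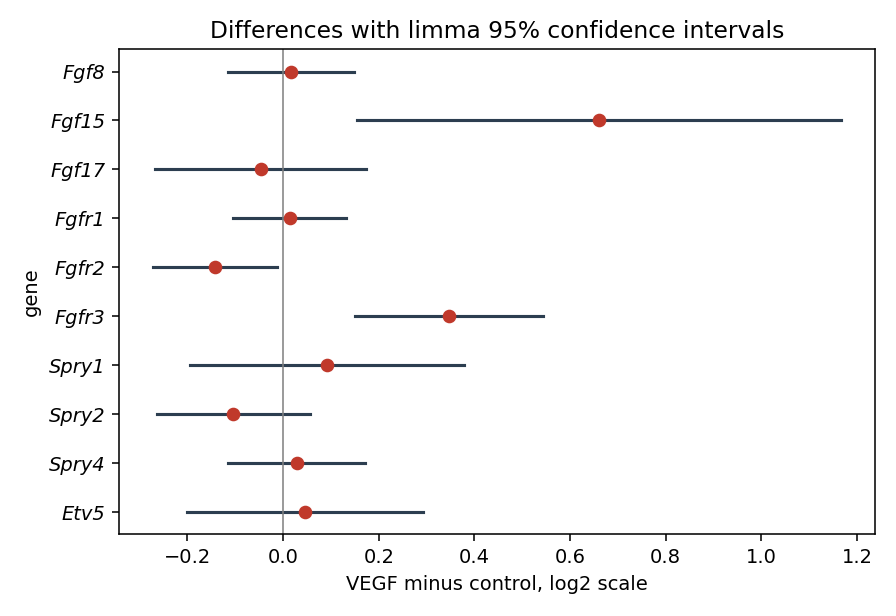
Differences of the 10 genes, VEGF minus control on the log2 scale, with points for limma's estimate and lines for the 95% confidence interval. The intervals of Fgfr3 and Fgf15 lie above 0 and that of Fgfr2 below it, and the intervals of the other 7 genes include 0. They are not adjusted for the number of genes. An interval leaves out 0 where limma's unadjusted p is under 0.05, as in 12.5% of all genes.

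The precision differed between the genes. The interval lay within 0.3 of no difference in 7 of the 10 genes, and it reached beyond that in Fgf15, Fgfr3 and Spry1. The pooled SD within groups was 0.128 at the median of the 10 genes, against 0.0752 over all genes, and it was lowest in Fgfr1 at 0.077. A missed threshold therefore does not show that the groups were alike, least of all in the genes of wide spread. The spread within groups exceeded that of 96.6% of all genes in Spry1, 94.6% in Etv5 and 92.2% in Fgf17.

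Marker lists of other cells and regions moved across the same arrays. The radial glia list, 13 genes of 13 measured, averaged 0.0023, 0.051, 0.14 and 0.063 in the VEGF-labelled arrays, against -0.10, -0.046, 0.014 and -0.058 in control. Of these genes 9 were higher and 4 lower, with a median difference of 0.063, and VEGF 3 was highest and control 1 lowest, as in Fgfr3. The array means lean on Hopx, which differed by 0.68, the next being Hes1 at 0.28, and had 0.67 in VEGF 2. The mitosis list, with 12 of 12 measured genes higher of 13 listed and a median difference of 0.17, averaged -0.047, 0.085, 0.27 and 0.039 in the VEGF-labelled arrays, against -0.16, -0.20, 0.058 and -0.076 in control. VEGF 3 was again the highest and control 3 the highest control array, as in Fgfr3, but the lowest array was control 2 rather than control 1. VEGF 1, the next highest array in Fgfr3 after VEGF 3, was the lowest VEGF-labelled array in both lists. It lay below control 3 in both, so the groups overlapped in both lists. The part of these lists in the Fgfr3 difference was not tested.

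Fgf15 was high in the arrays in which markers of the thalamus and diencephalon were high within the VEGF-labelled group. That list, with 11 of 11 genes higher and a median difference of 0.36, averaged 0.67, 0.60, 0.085 and -0.21 in the VEGF-labelled arrays, against -0.26, 0.20, -0.19 and -0.26 in control. In control the order differed, since Fgf15 was highest in control 3 and the list in control 2. VEGF 1, VEGF 2 and control 2, the 3 highest arrays of this list, were also the arrays of high Sprouty mean. Spry1 and Spry4 were each highest in these 3 arrays. Spry2 was not, with -0.026 in VEGF 1, below all control arrays, and 0.15 in control 1, where this list was at its lowest. The choroid plexus list had 7 of 9 genes measured and 1 of them, Otx2, higher. Its mean was highest in VEGF 1, VEGF 2 and control 2, at 0.18, 0.14 and 0.25, against -0.22 to 0.011 in the other 5 arrays. The means in VEGF 1 and VEGF 2 lean on Otx2, which had 0.73 and 0.85 there. In VEGF 2, Ttr, Folr1, Kl and Aqp1 were below 0, while Clic6 and Kcnj13 had 0.21 and 0.082. The part of these regions in the Fgf15 and Sprouty values was not tested.

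Markers of the ganglionic eminence and its interneurons were lower in 13 of 13 measured genes of 14 listed, with a median difference of -0.53. The list averaged -0.23, -0.14, -0.83 and -0.21 in the VEGF-labelled arrays, against 0.39, 0.22, 0.083 and 0.26 in control, and its lowest array, VEGF 3, was the highest in Fgfr3 and Etv5. Markers of cortical excitatory neurons were lower in 10 of 10 measured genes of 11 listed, with a median of -0.39. Their mean was -0.38, -0.44, -0.16 and 0.057 in the VEGF-labelled arrays, against 0.21, -0.012, 0.023 and 0.21 in control, and VEGF 1 and VEGF 2, the lowest arrays here, were also lowest in Fgfr2. The part of these cells in the receptor values was not tested.

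**Figure D3:**
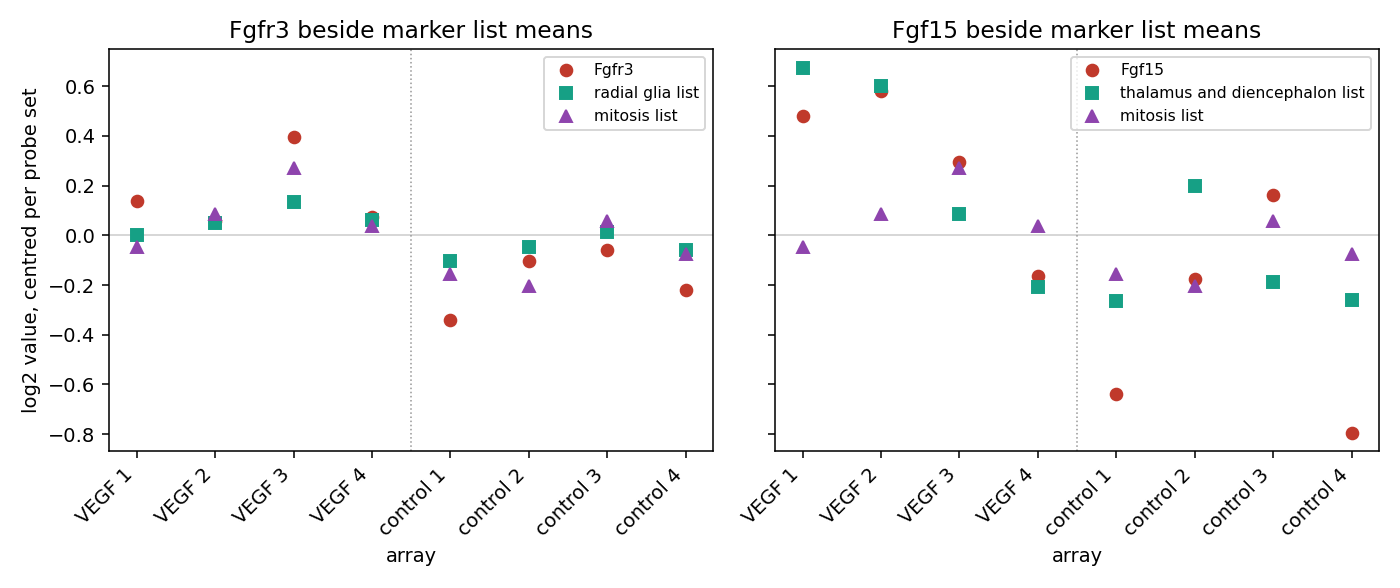
Log2 values, centred per probe set, of Fgfr3 (left) and Fgf15 (right) in each array, beside the mean of marker lists, with VEGF-labelled arrays left of the dotted line. Fgfr3 and both lists beside it are highest in VEGF 3, but VEGF 1, next highest in Fgfr3, is below control 3 in both lists. Fgf15 is high with the thalamus and diencephalon list in VEGF 1 and VEGF 2 but not in control 2.

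The pattern of each gene over the 8 arrays was set against 18283 other genes, leaving out predicted genes and systematic names, and the 3 with the highest Pearson r were named as a description. The points share the arrays and any array-wide differences. Fgfr3 was most like the integrin subunit Itgav at 0.989, followed by Tbrg1 at 0.983 and the cortical progenitor factor Lhx2 at 0.982. Between the groups, Itgav differed by 0.32, Tbrg1 by 0.078 and Lhx2 by 0.18. Fgf15 was most like the mitochondrial folate enzyme Mthfd1l at 0.977, Cc2d1b at 0.969 and the splicing factor Mbnl1 at 0.964. Fgfr2 was most like the complex I subunit Ndufs3 at 0.979, Mta2 at 0.978 and Peli2 at 0.973. Fgfr1 had Ltbp1 at 0.98, Amigo3 at 0.973 and Ankrd54 at 0.968. For Fgf8 they were Vwa2 at 0.994, Ccdc153 at 0.982 and Crnn at 0.976, and for Fgf17 they were Olfr631 at 0.96, Scimp at 0.947 and Tmprss15 at 0.947. Spry1 was most like the neuronal protein gene Astn2 at 0.985, Ooep at 0.972 and the transcription factor Onecut2 at 0.968. Spry2 had Ufd1 at 0.982, Eid2b at 0.954 and Frg2f1 at 0.954, Spry4 had Usp27x at 0.986, Casq2 at 0.98 and Pcp4 at 0.978, and Etv5 had Trmt61a at 0.952, Nup133 at 0.938 and Snora21 at 0.92. No gene of the 10 was among the 3 nearest of another.

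The rest of the pathway was read from 7 lists of 113 genes, of which 104 were measured. None passed limma's test over all genes, with 43 higher and 61 lower, beside 43.3% of all genes that were higher. At an unadjusted p under 0.05 there were 20 of the 104 genes (19.2%), 9 higher and 11 lower, against the 12.5% of all genes, and the methods' t-test gave 20 as well and 0 after adjustment. The groups did not overlap in 12 of the 104 genes, 7 higher and 5 lower, beside 6.84% of all genes, 2.13% higher and 4.71% lower. The genes named below were picked as the 3 of smallest p in each list.

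The other FGF ligands were on the low side, 17 of 19 lower and 2 higher, beside 43.3% of all genes higher. Their median difference was -0.077. The largest was in Fgf11, an intracellular FGF of neurons that is not secreted, with -0.49 (limma, adjusted p = 0.243). Its values were -0.46, -0.52, -0.32 and 0.053 in the VEGF-labelled arrays, against 0.35, -0.013, 0.013 and 0.35 in control, and VEGF 4 alone lay within the control range. The secreted ligand Fgf7 differed by -0.17 and Fgf13, of the same intracellular family as Fgf11, by -0.15 (limma, adjusted p = 0.243 and 0.299). The mean of the ligand list was lower in each VEGF-labelled array, between -0.10 and -0.0076, than in each control array, between 0.0037 and 0.086. Fgf1, Fgf3, Fgf4, Fgf10, Fgf16, Fgf21 and Fgf22 were each lowest in VEGF 2 and highest in control 2. These 2 arrays also had the lowest and the highest array median, while the other ligands had another lowest or highest array. The part of array-wide differences in the ligand list was not tested.

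Among other receptors and partners, 13 of 13 were measured, 5 higher and 8 lower, with a median of -0.028. Flrt2, a transmembrane protein that binds FGF receptors as well as guidance receptors, differed by -0.41, the secreted FGF-binding protein Fgfbp3 by -0.19 and the fourth receptor Fgfr4 by -0.14 (limma, adjusted p = 0.243, 0.243 and 0.281). These are 3 of the 5 pathway genes whose VEGF-labelled arrays lay below all control arrays, and Fgf7 and Plcg1 are the others. The heparan sulfate list, 10 of 11 measured, had 6 higher, 4 lower and a median of 0.021. Hs2st1, which adds 2-O-sulfate to heparan sulfate, differed by 0.30 (limma, adjusted p = 0.243), while Ext2 and Glce differed by -0.055 and 0.051.

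Of the adaptors and the Ras-ERK cascade 16 of 23 were measured, 7 higher and 9 lower, with a median of -0.022. Plcg1, the phospholipase that FGF receptors phosphorylate, differed by -0.16 (limma, adjusted p = 0.243), the ERK kinase Map2k1 by 0.13 and the ERK-activated kinase Rps6ka3 by 0.13. Other feedback inhibitors, 13 of 13 measured, had 5 higher, 8 lower and a median of -0.018. Lrig1, a transmembrane inhibitor of receptor tyrosine kinases, differed by 0.28 and the ubiquitin ligase Cblb by -0.19 (limma, adjusted p = 0.243 and 0.366), while its relative Cbl differed by 0.089.

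Other ETS factors and ERK target genes, 18 of 18 measured, had 7 higher and 11 lower with a median of -0.022. The cyclin Ccnd1 differed by 0.27, the growth regulator Myc by -0.18 and the ETS factor Elk1 by -0.14 (limma, adjusted p = 0.243, 0.317 and 0.299). The forebrain patterning genes tied to FGF, 15 of 16 measured, had 11 higher, 4 lower and a median of 0.094. The progenitor transcription factors Pax6 and Lhx2 differed by 0.23 and 0.18, and Nr2f1, which specifies caudal cortical areas and is repressed by Fgf8, by 0.096 (limma, adjusted p = 0.251, 0.289 and 0.281). These 3 and Dmrta2 had their VEGF-labelled arrays above all control arrays, 4 of the 15 measured genes, beside 2.13% of all genes. Pax6 is also in the radial glia list.

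**Figure D4:**
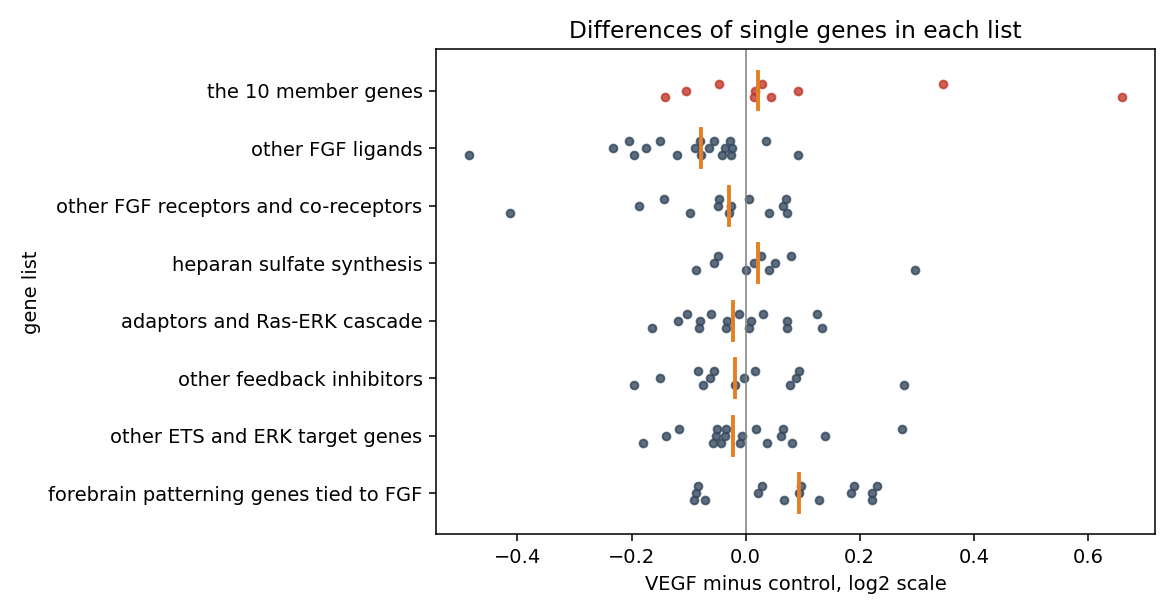
Differences of single genes, VEGF minus control on the log2 scale, for the 10 genes and for 7 lists of other pathway genes, with 1 point per gene, spread vertically for legibility, and an orange bar at the median. The other FGF ligands lie mostly below 0, with a median of -0.077, and the forebrain patterning genes mostly above it, with a median of 0.094.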

How the data were processed

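Biotin-labelled cDNA of total RNA from 8 samples was measured, per the labels' protocols, and Affymetrix Expression Console and mouse build mm8 are named in the submitters' processing notes. How background was corrected and probes summarised is not given in the sources used. The values that the authors deposited were read as log2 values, an assumption, as the base is not stated in the sources used. They cover 28853 probe sets with 0 missing, each centred within 1e-06 of 0 at its median. Since centring removes brightness, dim probe sets could not be filtered and signal over background is unknown.

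Names of probe sets came from the platform annotation (21789 with 1 symbol, 1621 with several, 5443 unnamed here), and symbols were updated through the RefSeq table of GRCm38.p6 (21698 found). Probe sets with several symbols were left out, and probe sets of a gene were averaged. The sample titles gave the groups and replicate numbers. limma 3.58.1 in R 4.3.3 (linear model, empirical Bayes, no covariate) was fitted on all 19938 genes with Benjamini-Hochberg adjustment, and exact permutation tests used scipy 1.17.1. On data simulated with this spread, limma recovered 16.4% of genes changed by 0.2, 91.0% by 0.5 and 98.5% by 1, and 10 of 147 calls were wrong. The simulated noise was independent between genes, and the changed genes were drawn at random from all genes. Since the median SD within groups was 0.128 in the 10 genes and 0.0752 over all genes, these shares cannot be read as theirs.

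The members and lists were chosen with earlier results of these data known. The naming rule was all 10 members and Vegfa whatever their values, the 3 genes of smallest p in each of 7 pathway lists, and the 3 genes most like each member. The means of 13 marker lists were also read. Alternatives were the replicate number as a block, array centring, a trended and robust prior, quantile normalization, a sex index from Xist and Y-linked genes, array weights, the methods' t-test, medians over probe sets, probe sets alone, and leaving out each array.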

Additional observations from a re-analysis of the deposited data

How the results depend on the processing

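No member passed under any of the 17 alternatives, in 15 of which no gene of the array passed, while 1 passed with quantile normalization and 10 without VEGF 4. Of the 171 values of single members under these alternatives 49 could not move, since the setting leaves the difference as it is. Of the other 122, 109 had the direction of the value over all arrays and 13 reversed, all in genes whose difference over all 8 arrays was at most 0.047 in size. With array weights Fgf17 was at 0.063 and Etv5 at -0.058, and with the sex index Etv5 was at -0.0018. Leaving out 1 array moved Fgf8 between -0.024 and 0.053, Fgf17 between -0.11 and 0.024, Fgfr1 between -0.018 and 0.063, Spry4 between -0.012 and 0.068, and Etv5 between -0.050 and 0.13. The cause was not tested. With the sex index as a covariate Fgfr3 was at 0.31 and Fgf15 at 0.55.

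The number of members whose groups did not overlap was 1 to 2 when 1 array was left out. It was 2 without VEGF 2 (Spry2 added, 9.86% of all genes not overlapping), without VEGF 3 (Fgfr2 added, 8.86%), without VEGF 4 (Fgf15 added, 13.0%) and without control 3 (Fgf15 added, 13.7%). Fewer arrays make such gaps easier by construction. The median difference of the members stayed between -0.013 and 0.045.

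Whether the replicate numbers pair the arrays is not settled by the correlations of same-numbered arrays, which ran from -0.13 to 0.454. VEGF 3 was most like control 3 and VEGF 4 most like control 4. By contrast, VEGF 1 was most like control 2 and VEGF 2 most like control 3. With the replicate number as a block, 0 members passed, with adjusted p = 0.161 for Fgfr3 and 0.167 for Fgf15. The number of arrays and unknown signal over background limit the precision.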

Other observations

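The remaining marker lists are given as values. The red blood cell list, 9 of 10 measured, had 8 genes higher and a median difference of 0.31, with its highest array mean in VEGF 1 at 0.72. Endothelial markers, 10 of 10 measured, had 4 higher and a median of -0.00094. Meningeal and fibroblast markers, 11 of 11 measured, had 8 higher and a median of 0.030, with the lowest array mean in VEGF 3 at -0.40. Intermediate progenitor markers, 8 of 8 measured, had 4 higher and a median of 0.025, and VEGF 3, the array of highest Etv5, also had their highest mean at 0.18. Choroid plexus markers had a median of -0.14. Oligodendrocyte precursor markers, 6 of 6 measured, had 0 higher and a median of -0.17. Astrocyte markers, 8 of 8 measured, had 2 higher and a median of -0.087, and microglia markers, 7 of 8 measured, had 3 higher and a median of -0.080. No gene of these lists passed limma's test over all genes. At an unadjusted limma p under 0.05, 6 of the 66 genes measured in the 8 lists were higher and 6 lower, beside 4.62% of all genes higher and 7.84% lower.

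None of the 20 groups of 4 arrays formed by the 10 genes held an array that stood apart by Dixon's test at its critical value of 0.829.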
